A study of Drosophila melanogaster with 4 samples.

Results

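The 1122 regions described here are the enriched H3K79me2 clusters of the X chromosome, of 5971 enriched clusters in the list made for the whole series. They were taken by position alone, as every cluster named enriched on X, and each was matched to the X clusters of the 2 ChIP replicates by at least 1 shared base. H3K79me2 is dimethylation of lysine 79 of histone H3, and was mapped here by ChIP-seq, the sequencing of immunoprecipitated chromatin, with a polyclonal rabbit antibody from Abcam. The material was whole Drosophila melanogaster larvae of the third instar, wild-type Oregon-R, with 2 ChIP samples and 2 input samples of the same strain and stage, all without any treatment. Whole larvae mix many tissues, the labels do not separate the sexes, and nothing in them says whether the replicates came from separate collections, so an SD given here measures the difference between these 2 samples. Arms 2L, 3L and 3R, with 1041, 1196 and 1391 clusters in the same list, served as the reference.

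Lysine 79 lies on the surface of the nucleosome core, and in flies its methylation depends on grappa, the counterpart of yeast Dot1. It is a mark of transcription elongation, found mainly over the bodies of active genes. Males carry a single X, and the MSL complex, which contains the roX RNAs and the acetyltransferase MOF, binds active X genes in males and raises their transcription. Cluster positions are on FlyBase release 5, given here as the first and last base counted from 1, and regions are named by position because genes of that release were not annotated here.

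Each list gives a cluster's position and score without its reads, so the depth behind a cluster is unknown. Scores were set by the authors on a scale that neither labels nor headers describe, so they only rank clusters within a list. No input values were analysed here, and no background level stands beside the clusters. With 2 replicates, an exact two-sided test of X against another arm cannot give a p below 0.5, so no test between arms was made. A difference from another arm is instead given within each replicate and set beside the difference between the replicates. Clusters of a list share their library and are not replicates. The whole-series list belongs to these same samples, so it is not an observation independent of the 2 replicates.

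Clusters lay closer together on X than on any of the reference arms, and a smaller share of them was broad. The covered share of X was close to the reference level, and what differed was how the covered bases were laid out. X had more clusters of middle width, shorter gaps between clusters, and more of its length in long empty stretches than 3L or 3R when all clusters were counted. Narrow clusters on X also ranked higher by score than narrow clusters elsewhere, as did those of 20 kb or more within their width class. A higher score and a higher limit for calling a cluster on X cannot be told apart here.

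The X chromosome, 22.4 Mb long in the file headers, held 1168 clusters over 5.82 Mb in replicate 1 and 923 over 5.54 Mb in replicate 2. The whole-series list held its 1122 X clusters over 6.47 Mb. Replicate 1 had 26.0% of X inside clusters, replicate 2 had 24.7% and the whole-series list had 28.8%. Set over the mean of 2L, 3L and 3R, replicate 1 gave 0.991 and replicate 2 gave 0.997, with a mean of 0.994 ± 0.00411 (SD, n = 2). X exceeded 2L by 1.85 percentage points ± 0.164 and lay below 3R by a difference of -1.81 ± 0.506 (each SD, n = 2, differences within a replicate). In the whole-series list the ratio was 1.01, on the other side of 1, so no direction against the mean of the 3 arms can be given.

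Density was higher on X in every list. X carried 5.21 clusters per 100 kb in replicate 1, against 4.74 on 2L, 5.05 on 3L and 5.08 on 3R. In replicate 2 it carried 4.12, against 3.62, 3.74 and 4.02, and in the whole-series list 5.00 against 4.52, 4.87 and 4.98. X was thus the highest in each list, but 3R followed by only 0.113 clusters per 100 kb ± 0.0200 (SD, n = 2, within a replicate). The replicates differed far more from each other than X did from any arm, with 4.66 ± 0.773 on X (SD, n = 2). Over the mean of the 3 arms the density of X was 1.07-fold ± 0.0242 (SD, n = 2).

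Neighbouring clusters on X were separated by shorter gaps. The median gap was 2140 bp on X in replicate 1, against 2336.5 bp on 2L, 2472 bp on 3L and 2588.5 bp on 3R. In replicate 2 it was 3208 bp against 4243, 4363 and 3852.5 bp, while the whole-series list had 1965 bp against 2367, 2456 and 2433 bp. X had the shortest median gap of the 4 arms in all 3 lists, at 0.868 of the reference mean in replicate 1 and 0.772 in replicate 2. X differed from the reference mean by -326 bp in replicate 1 and -945 bp in replicate 2, with a mean of -635 bp. The spread between replicates, 2674 ± 755 bp on X (SD, n = 2), was wider than this mean difference but not than that of replicate 2. Gaps under 5 kb made up 67.8% of the gaps of X in replicate 1 and 59.6% in replicate 2. On the reference arms the share ran from 62.5% to 63.7% and from 52.2% to 54.0%, so that X lay above their range in both.

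X had more gaps under 5 kb and fewer of 20 to 50 kb per Mb than any of the other arms. Gaps under 1 kb numbered 17.2 per Mb on X in replicate 1, against 15.0 to 16.2 on the reference arms, and 11.4 in replicate 2, against 8.80 to 10.4. X had 18.1 gaps of 1 to 5 kb per Mb in replicate 1, against 14.4 to 17.1 on the reference arms, and 13.1 in replicate 2, against 10.3 to 11.3. Gaps of 20 to 50 kb numbered 3.66 per Mb on X in replicate 1, against 4.30 to 4.52, and 3.30 in replicate 2, against 4.22 to 4.62. Gaps of 5 to 20 kb gave no such order, since X was the lowest in replicate 1 and within the range of the other arms in replicate 2, at 8.92 against 8.30 to 9.53. Clusters that stood at least 20 kb from both neighbours were also rarest on X. They were 2.31% of the X clusters in replicate 1, against 3.07% to 4.04% on the reference arms, and 3.68% in replicate 2, against 5.17% to 6.60%. In the whole-series list 27 X clusters were that isolated, 2.41%, against 52 on 2L, 38 on 3L and 40 on 3R.

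Broad clusters made up a smaller share of the clusters on X than on the other arms. Clusters of at least 10 kb were 9.59% of the X clusters in replicate 1, 112 of them, against 12.4% on 2L, 11.9% on 3L and 14.0% on 3R. In replicate 2 they were 15.3%, or 141, against 17.8%, 18.5% and 17.8%. X was the lowest of the 4 arms in both, by -2.94 percentage points ± 0.292 from the reference mean (SD, n = 2). The same clusters held 30.3% of the clustered bases of X in replicate 1 and 44.0% in replicate 2, against 38.3% to 42.3% and 50.5% to 52.9% on the reference arms. In the whole-series list the gap narrowed to 15.2% on X against 15.5% to 16.5%. It also narrowed when clusters with gaps under 1 kb were first joined. The ratio of X to the reference mean then went from 0.800 to 0.982 and stood at 1.02 in replicate 2 alone. Per Mb, clusters of 10 to 20 kb were fewest on X only in replicate 1, at 4.15 against 4.56 to 5.52. In replicate 2 X was within the range of the other arms, at 4.82 against 4.60 to 5.16. In the whole-series list it was the highest, at 5.84 against 5.05 to 5.77. Clusters of 20 kb or more were fewest per Mb on X in each list.

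Clusters of 5 to 10 kb were in contrast most frequent on X. They made up 25.2% of the X clusters in replicate 1, against 19.9% on 2L, 20.2% on 3L and 21.9% on 3R. In replicate 2 their share was 25.2% against 22.0%, 23.2% and 22.7%, and in the whole-series list 23.4% against 19.1%, 20.5% and 20.0%. At 20 kb or more the order was the reverse, with 19 X clusters in replicate 1, 1.63%, against 2.20% to 3.10% on the reference arms. Replicate 2 had 33 such X clusters, 3.58% against 4.80% to 6.21%, and the whole-series list had 39, 3.48% against 4.51% to 5.10%. The median width did not separate X from the others in the same way in both replicates. It was 3571.5 bp in replicate 1, above all 3 arms, and 3951 bp in replicate 2, above 2L at 3838 bp and below 3L and 3R at 3984 and 3980 bp.

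**Figure D1:**
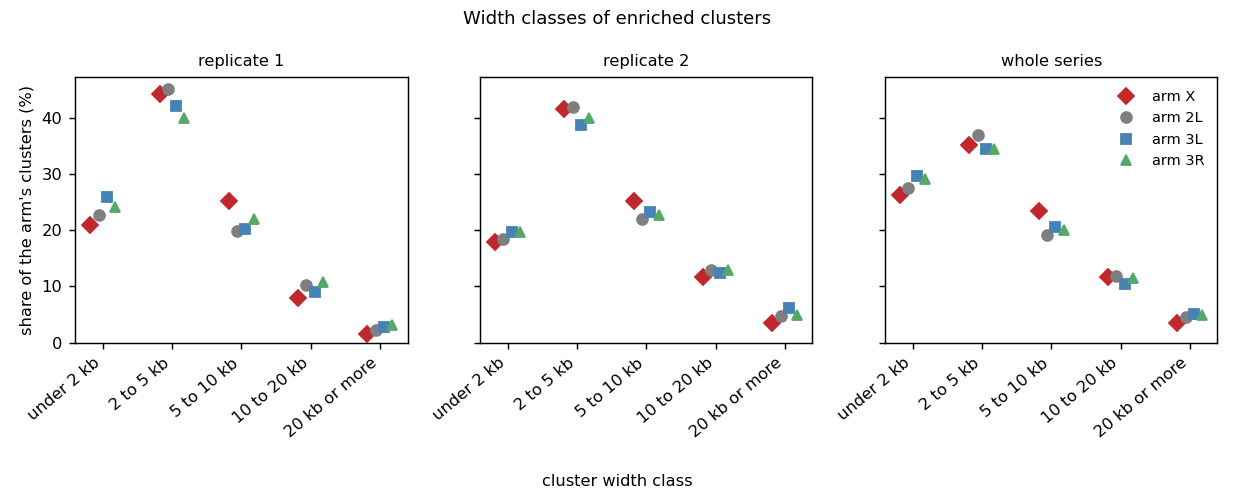
Share of each arm's enriched clusters (y axis, percent) in 5 width classes (x axis) for X, 2L, 3L and 3R, with 1 panel per list and 1 point per arm. X is the highest of the 4 arms at 5 to 10 kb and the lowest at 20 kb or more in all 3 lists.

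The short gaps made chains of clusters. A chain is here a run of clusters with less than 5 kb between neighbours. The number of chains therefore follows from the gaps under 5 kb given above. Their length and the share of single clusters depend largely on the same gaps and are not a separate result. In the whole-series list X had 347 chains, of which 111, or 32.0%, were a single cluster, against 39.7% to 43.1% on the reference arms. The median chain was 15369 bp long on X and 9977 to 11286 bp elsewhere. X was also first in each replicate, with median chains of 12391 and 11670 bp against 9300 to 10466 bp and 9106 to 9794 bp. Chains of 50 kb or more were no more frequent on X than on the other arms, at 12.9 per 10 Mb in replicate 1, within the 9.13 to 15.1 of the reference arms, and 8.92 in replicate 2, within 7.82 to 10.4. Inside these long chains X was the least covered of the 4 arms, at 83.5% in replicate 1 and 86.9% in replicate 2, against 85.1% to 86.6% and 89.0% to 92.0%.

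The 5 longest chains of X in the whole-series list were spread over the arm. The longest, chrX:11386678-11528226, ran for 142 kb as 9 clusters. Replicate 1 covered 81.5% of it, in 15 clusters, and replicate 2 covered 84.1%, in 9. The next was chrX:13087050-13201748, 115 kb long, covered over 80.2% and 75.6%. The chain chrX:19491398-19600456 held 17 clusters in 109 kb, the most of the 5, and was covered over 81.1% in replicate 1 and 69.9% in replicate 2. Of all 5, chrX:1717872-1825056 was the most continuous, 107 kb with 5 clusters and a covered share of 97.1% and 94.5%. The last, chrX:16459736-16552424, measured 92.7 kb in 11 clusters and was covered over 80.3% and 79.2%.

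The 10 widest clusters of X lay in both replicates over most of their length. Over all arms, all 265 clusters of 20 kb or more had bases in both replicates, so such a match is not particular to X. The widest, chrX:1462992-1523062, measured 60.1 kb and was covered over 98.0% in replicate 1 and 96.8% in replicate 2, as 2 clusters in each. The second, chrX:1750426-1796746 with 46.3 kb, was covered over 99.7% and 97.4%, and the third, chrX:1139390-1180268 with 40.9 kb, over 94.0% and 87.3%. These 3 regions lie within the same 1 Mb near the telomere end, the most covered 1 Mb of the arm. The fourth, chrX:2527430-2568052 with 40.6 kb, was a single cluster in each replicate and covered over 99.7% and 99.8%.

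The other wide clusters were scattered over the rest of the arm. The fifth, chrX:12603600-12644182 with 40.6 kb, was broken into 6 clusters in replicate 1 and whole in replicate 2, covered over 85.6% and 99.6%. The sixth, chrX:11386678-11424032 with 37.4 kb, was in 4 clusters in replicate 1 and 1 in replicate 2, and begins the longest chain. The remaining regions were chrX:13117704-13152570, chrX:16657594-16689668, chrX:19379968-19411994 and chrX:506012-537588, between 31.6 and 34.9 kb, each covered over at least 90.1% in both replicates. The last of them had 81.6 kb without a cluster on its telomere side and 91 bp to its other neighbour.

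Of the 39 X clusters of 20 kb or more in the whole-series list, 8 lay in the 2 Mb at the telomere end and 0 in the 2 Mb at the centromere end. The first 1 Mb held 46 of all 1122 X clusters and the second 55. Clusters of 10 kb or more also made up a larger share next to the telomere than next to the centromere on each reference arm. The counts of this paragraph were made on X alone, so they show no trait particular to X. Together the 39 X clusters spanned 1.09 Mb, 16.8% of the clustered bases of X. Each was covered over at least 82.5% of its length in replicate 1 and 84.6% in replicate 2. Replicate 1 showed 15 of them as a single cluster and replicate 2 showed 22. Replicate 1 had more pieces than replicate 2 in 18, fewer in 9 and the same number in 12, with at most 6 pieces in replicate 1 and 3 in replicate 2.

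Along X the covered share rose and fell several times rather than following a single slope. Of the 22 full windows of 1 Mb, the most covered was chrX:1000001-2000000, with 49.2% and 44.4% in the replicates and a mean of 46.8% ± 3.37 (SD, n = 2). It was followed in both replicates by chrX:11000001-12000000 at 37.7% ± 0.452. The third by the mean, chrX:6000001-7000000 at 33.6% ± 1.50, did not differ from chrX:13000001-14000000 at 33.3% ± 0.0175 beyond its spread (each SD, n = 2). The least covered were chrX:21000001-22000000 at 11.4% ± 0.460 and chrX:20000001-21000000 at 11.5% ± 0.911, both at the centromere end. The third least covered, chrX:14000001-15000000 at 12.7% ± 0.200 (each SD, n = 2), was in the middle of the arm, between neighbours at 33.3% and 31.0%. Windows of middle rank differed by less than the spread between replicates, for example chrX:3000001-4000000 at 23.6% ± 1.79 and chrX:10000001-11000000 at 22.7% ± 1.69 (each SD, n = 2).

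Cut into 5 equal parts from the telomere end, X was covered at 29.8%, 25.5%, 28.5%, 26.8% and 19.2% in replicate 1. Replicate 2 gave 27.6%, 24.5%, 27.8%, 26.8% and 17.0%. The first 4 parts thus stayed between 24.5% and 29.8%, and the part next to the centromere fell below them in both replicates. On 2L the parts spanned 12.8% to 31.9% in replicate 1, and 13.1% to 30.1% in replicate 2, a wider range than on X. On 3R the range was narrower than on X, 23.8% to 30.9% and 22.0% to 28.8%. On 3L the part next to the centromere was the lowest too, at 20.0% and 18.1%. Clusters of 10 kb or more were 14.6% of the X clusters in the part next to the telomere and 8.20% in the part next to the centromere in replicate 1, and 17.0% and 9.46% in replicate 2. The part next to the telomere also had the higher share on each reference arm, for example 18.7% against 8.33% on 2L in replicate 1, so this fall is not particular to X. Between these ends the replicates differed, with the middle part at 10.3% in replicate 1 and 20.0% in replicate 2.

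**Figure D2:**
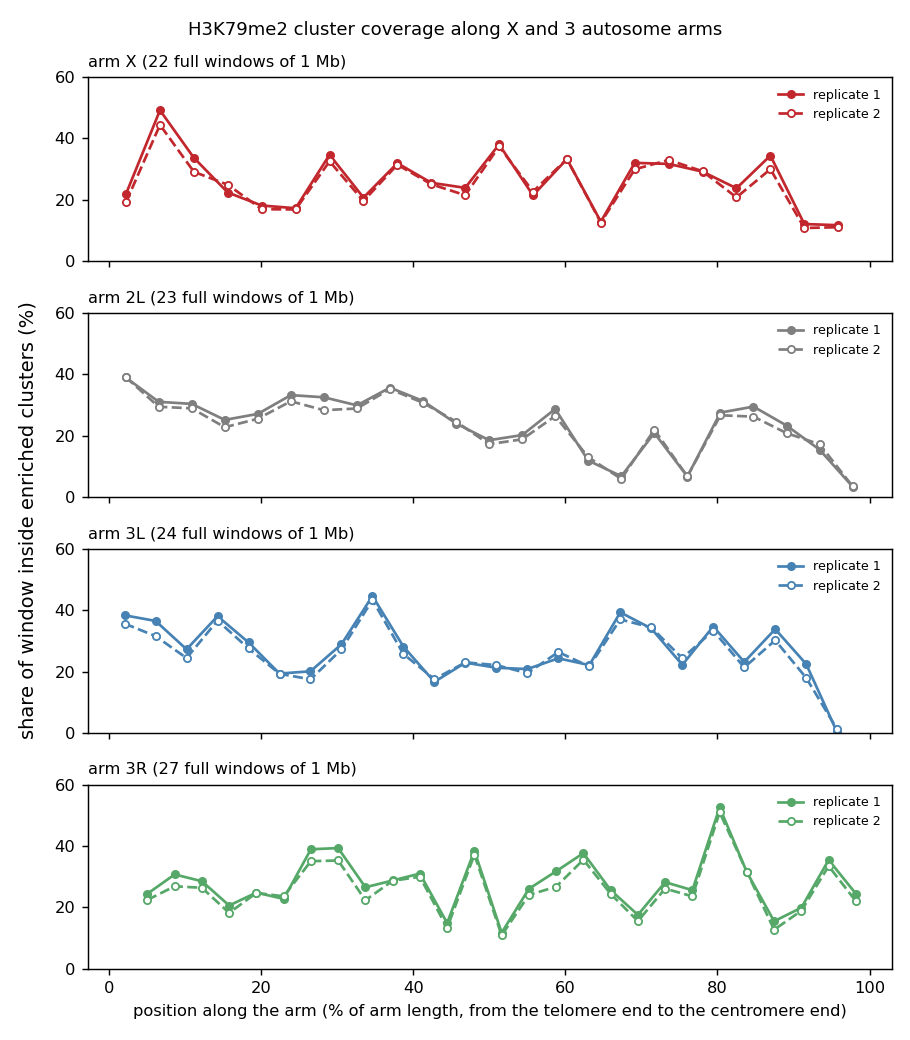
Share of each full 1 Mb window inside enriched clusters (y axis, percent) against its position along the arm (x axis, percent of arm length from the telomere end to the centromere end), for X, 2L, 3L and 3R, with replicate 1 as filled and replicate 2 as open points. On X the peak near the telomere end is at 49.2% and 44.4%, and the last 2 full windows are at 12.1% and 11.7% in replicate 1.

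At 100 kb the profile of X was patchy. Of 224 full windows, 33 held no clustered base in each replicate, 14.7% of them, against 14.8% on 2L, 14.7% on 3L and 8.96% to 10.0% on 3R. Coverage of the median window was 22.6% and 21.6% in the replicates. At the other end, 36 windows, or 16.1%, held the middle of 10 or more clusters in replicate 1, against 11.1% to 12.2% on the reference arms. In replicate 2 there were 15, or 6.70%, against 2.87% to 3.67%. X therefore had the largest share of such crowded windows in both replicates. Windows covered over at least 50% of their length gave no such order across the lists. X had 32 in replicate 1, 14.3% against 13.5% to 16.5%, and 29 in replicate 2, 12.9% against 12.2% to 15.8%, within the range of the other arms. The largest share in the whole-series list was that of X, 20.5% against 16.5% to 18.6%.

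The 5 most covered windows of 100 kb fell into 4 places. The first, chrX:13100001-13200000, had 85.2% in replicate 1 and 81.4% in replicate 2. The second, chrX:11400001-11500000, stood at 77.7% and 82.2%, and the third, chrX:1700001-1800000, at 79.2% and 76.8%. The fourth, chrX:19500001-19600000, was at 81.5% and 69.6%, and held the middle of 15 clusters in replicate 1 and 16 in replicate 2. The fifth, chrX:1800001-1900000, adjoins the third and was at 81.3% and 68.5%. The replicates did not rank these 5 alike, with the second ahead of the first in replicate 2.

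Over the 224 windows the covered shares of the replicates had a Pearson correlation of 0.98 and a Spearman correlation of 0.98, as a description, since windows are neighbours within the same libraries. The median difference was 2.32 percentage points and the largest 13.9, and replicate 1 was the higher in 130 windows and replicate 2 in 63. Replicate 1 was also more often the higher on 2L, 135 against 66, on 3L, 146 against 67, and on 3R, 204 against 50.

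More of X than of 3L or 3R lay in long stretches without a cluster. Replicate 1 had 91 cluster-free stretches of 50 kb or more, replicate 2 had 98 and the whole-series list had 90. In that order they made up 48.5%, 52.0% and 47.4% of X. On 2L the shares were within 0.539 percentage points of these, 48.7%, 51.5% and 47.0%. On 3L and 3R they were lower, at 44.3% and 42.3% in replicate 1 and 47.5% and 45.9% in replicate 2. X exceeded 3L by 4.31 percentage points ± 0.183 and 3R by 6.14 ± 0.000566 (each SD, n = 2, differences within a replicate), more than the spread of 2.50 on X between the replicates. Against the mean of the 3 arms the ratio was 1.08. It turned to 0.991 when only clusters at or above the median score were kept, and it was 1.01 for those at or above the median width.

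What remained of X outside these stretches was covered more fully than on the other arms. This share is the covered bases over the arm length outside the stretches. It therefore follows from the covered share and the share in stretches given above, and is not a separate result. It was not recomputed under the alternatives of the closing section. It was covered at 50.4% in replicate 1, against 46.8% on 2L, 47.4% on 3L and 48.8% on 3R. In replicate 2 the share was 51.5% against 47.4%, 48.1% and 48.3%, and in the whole-series list 54.8% against 50.0%, 50.9% and 51.4%. X was the highest in each list, by 3.14 percentage points ± 0.613 over the mean of the 3 arms (SD, n = 2, within a replicate). The spread of X itself was 0.807 (SD, n = 2), smaller than its difference from each arm in the means. The difference from 3R was 1.61 points in replicate 1 and 3.16 in replicate 2.

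**Figure D3:**
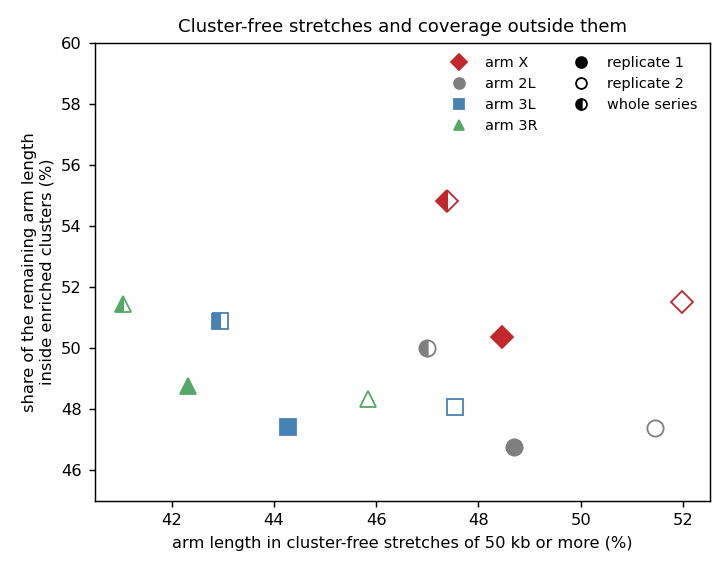
Share of arm length in cluster-free stretches of 50 kb or more (x axis, percent) against the share of the remaining arm length inside enriched clusters (y axis, percent, starting at 45), with shape and colour for the arm and fill for the list. In each list X is above 2L, 3L and 3R, at 50.4%, 51.5% and 54.8%.

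Most of the longest stretches of X lay on the centromere side of its midpoint. In the whole-series list 42 stretches reached 100 kb, 31.4% of the arm, against 30.0% on 2L, 25.7% on 3L and 24.7% on 3R. Of the 10 that reached 200 kb, 8 lay on that side, as did 7 of 7 on 2L, 5 of 7 on 3L and 5 of 9 on 3R. The longest, chrX:20532629-20900877 with 368 kb, held no cluster of either replicate. The second, chrX:21501673-21845843 with 344 kb, held no base of replicate 1 and was entered by replicate 2 over 0.00552%. The third, chrX:14158595-14474191 with 316 kb, was entered over 0.00729% in replicate 1 only.

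The fourth was chrX:7236243-7502435 with 266 kb, the longest on the telomere side, and the fifth chrX:19798057-20051081 with 253 kb. Each was entered from the edge by clusters of a single replicate, over 0.0203% and 0.0601% of its length. Of all 90 stretches, 87 held no whole cluster of either replicate, against 91 of 96 on 2L, 91 of 93 on 3L and 104 of 109 on 3R. This is thus not particular to X. Few replicate clusters could lie in the stretches, since the whole-series list that defines them overlapped 99.1% of X clusters in each replicate. The highest covered share of any X stretch was 2.30% in replicate 1 and 2.67% in replicate 2. As a whole the stretches were covered over 0.0829% in replicate 1 and 0.0710% in replicate 2.

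Single clusters in empty surroundings were also found in both replicates. The most isolated cluster of X, chrX:14474192-14477302, lay between empty stretches of 316 and 225 kb, with a width of 3.11 kb and a score above 20.7% of its list. It was covered over 99.7% in replicate 1 and 43.9% in replicate 2. The second, chrX:20528460-20532628 with 4.17 kb, adjoins the longest stretch, ranked above 63.4% of the list, and was covered over 98.3% and 96.9%. The third, chrX:22031534-22034652 with 3.12 kb, was covered over 42.2% and 97.8%. So 1 of these 3 was matched over nearly its full length in both replicates and 2 in only 1 of them.

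By the authors' score, narrow clusters on X ranked above narrow clusters elsewhere. Among clusters under 2 kb, the median X cluster of replicate 1 ranked above 71.2% of its width class, that of replicate 2 above 77.1% and that of the whole-series list above 72.0%. The medians of the reference arms were 41.9% to 47.2%, 42.2% to 47.4% and 42.3% to 48.3%. X lay above the range of the reference arms in each list, and its replicates were closer to each other than to any of those arms. At 2 to 5 kb the X medians were 58.1%, 58.0% and 56.9%, and those of the reference arms 44.5% to 48.5% over the 3 lists.

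From 5 kb up the lists did not give X the same place among the arms, except at 20 kb or more. At 5 to 10 kb the X median was 48.8% in replicate 1, within the 48.7% to 50.4% of the reference arms, and 53.5% in replicate 2, above their 44.9% to 49.1%. At 10 to 20 kb it was 61.1% in replicate 1, above the 41.3% to 51.7% of the others, and 47.3% in replicate 2, just below the 47.6% to 52.4% of the others. In the whole-series list both classes of X were within the range of the reference arms. At 20 kb or more X was the highest of the 4 arms in all 3 lists, at 77.4%, 60.4% and 60.9%, from 19, 33 and 39 clusters. The reference arms were at 46.2% to 55.1%, 46.7% to 56.2% and 44.3% to 57.9%, so the distance of X from them was far smaller in replicate 2 than in replicate 1.

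**Figure D4:**
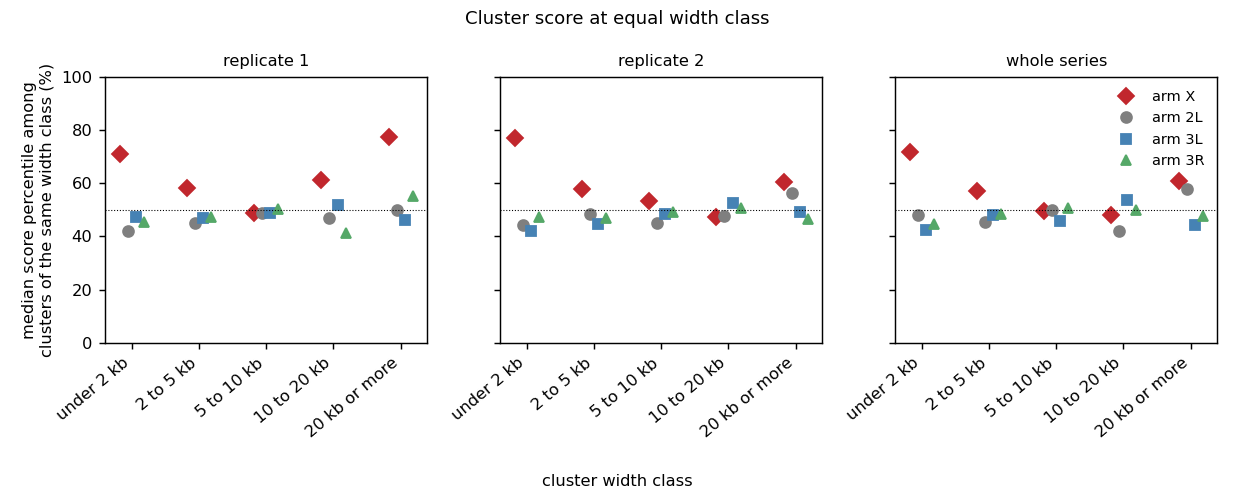
Median percentile of the authors' score among clusters of the same list and width class, all arms included (y axis, percent), for X, 2L, 3L and 3R in 5 width classes (x axis), 1 panel per list, with a dotted line at 50. Under 2 kb X is at 71.2%, 77.1% and 72.0%, and the reference arms are all below 50%.

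The same pattern showed at the low end of the score itself. The score below which the lowest 10% of the X clusters fell was 0.470 in replicate 1, against 0.366 to 0.371 on the reference arms. Replicate 2 had 0.497 on X against 0.400 to 0.409, and the whole-series list 0.314 against 0.236 to 0.258. At the 90% point X and the reference arms were closer, 1.89 against 1.74 to 1.80 in replicate 1, 1.59 against 1.49 to 1.58 in replicate 2 and 1.61 against 1.51 to 1.59. Only 17.0% of the X clusters of replicate 1 and 16.4% of replicate 2 fell in the lowest of 4 equal score classes of their list, against 26.6% to 27.9% on the reference arms over both replicates. How the caller used the input is not stated in the labels or headers, so a higher score and a higher limit for calling a cluster on X cannot be told apart.

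The 5 highest-scored clusters of X were 4.22 to 13.1 kb wide. The first, chrX:15212670-15220968, measured 8.30 kb with a score of 2.35 in the whole-series list, above 99.9% of it. The others were chrX:9569972-9580438, chrX:10358122-10371254, chrX:16490050-16501162 and chrX:6634856-6639072, with scores from 2.18 to 2.27. Each of the 5 was a single cluster in each replicate and covered over at least 95.6% of its length in both. None of them is among the 10 widest, of which the widest scored 2.17.

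Of the 1122 X clusters of the whole-series list, 812 had at least 1 base in clusters of both replicates, 72.4% (Wilson 95% interval 69.7 to 74.9, counting error only). Over all arms the share was 71.0%, so the X share was near that of the list as a whole. The 812 held 92.0% of the X cluster bases. A further 151, or 13.5%, met replicate 1 alone and 49, or 4.37%, replicate 2 alone. The remaining 110, or 9.80% (interval 8.20 to 11.7), met neither, against 9.81% over all arms.

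Overlap rose steeply with width. Of the 295 X clusters under 2 kb, 38 met both replicates, 12.9%, and 109 met neither, 36.9%. Over all arms 14.1% of this class met both and 34.1% neither. At 2 to 5 kb 343 of 395 met both, 86.8%, and at 5 to 10 kb 261 of 262, 99.6%. Over all arms these 2 shares were 86.2% and 99.3%. All 131 clusters of 10 to 20 kb and all 39 of 20 kb or more did so, as did all clusters of these widths over all arms. The rise with width is thus not particular to X. The narrow class, in which X ranked high by score, was therefore also the class least often found in both replicates. The lists do not reach down to the same width, however. The narrowest X cluster was 1001 bp in the whole-series list, 1303 bp in replicate 1 and 1302 bp in replicate 2. X clusters under 2 kb that met neither replicate had a median width of 1233 bp. How far this difference lowers the overlap was not tested. A rule of 1 shared base is easier to meet for a wide cluster.

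**Figure D5:**
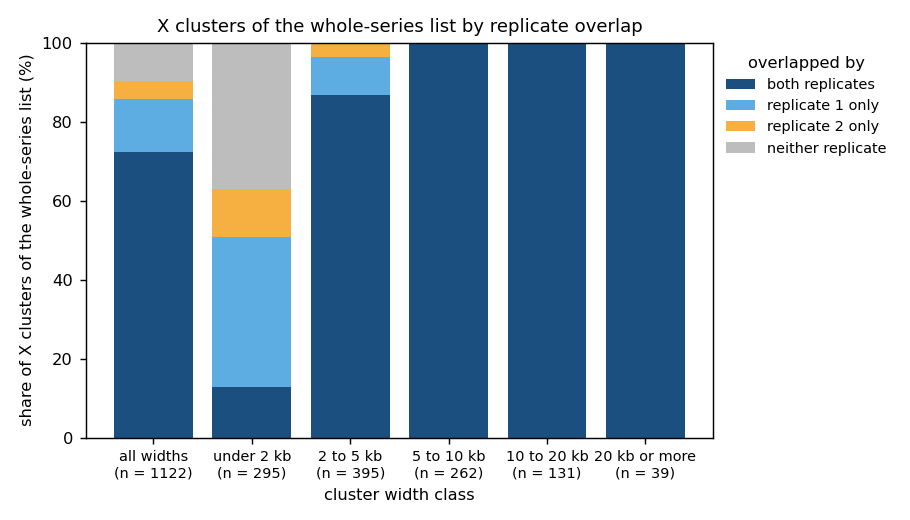
Share of X clusters of the whole-series list (y axis, percent) that overlapped clusters of both replicates, of replicate 1 only, of replicate 2 only or of neither, over all widths and in 5 width classes (x axis, with the number of clusters). Overlap with both replicates rises from 12.9% under 2 kb to 86.8% at 2 to 5 kb. Over all arms, not drawn here, it rises from 14.1% to 86.2%.

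Between the replicates, 1003 of 1168 replicate 1 clusters on X had a base in replicate 2, 85.9% (Wilson 95% interval 83.8 to 87.8), against 84.0% over all arms. In the other direction it was 871 of 923, 94.4% (92.7 to 95.7), against 94.8% over all arms. Both shares on X were near those of the whole lists. The unmatched clusters were narrow, with a median of 1715 bp in replicate 1 and 1871 bp in replicate 2, against 4178 and 4217 bp for the matched ones. The widest of replicate 1 were chrX:6659574-6664644, chrX:1197625-1202579 and chrX:970646-974953, at 5.07, 4.96 and 4.31 kb. Those of replicate 2 were chrX:3572182-3576786, chrX:7586648-7591124 and chrX:15053045-15057190, at 4.61, 4.48 and 4.15 kb.

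The whole-series list covered these 6 regions in part or nearly whole. It covered the replicate 1 regions over 81.9% to 97.6% of their length and the replicate 2 regions over 92.3%, 36.3% and 98.8%. The widest whole-series clusters of X with no base in either replicate were chrX:14707086-14709628, chrX:16590504-16592494 and chrX:17628162-17630056. They measured 2.54, 1.99 and 1.90 kb, and each had clusters within 3.09 kb on both sides.

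The replicates shared a smaller part of their covered bases on X than on the other arms. The Jaccard index of covered bases, the shared bases over those covered in either replicate, was 0.795 on X and 0.814 to 0.833 on the reference arms. On X 578 pairs of clusters matched each other and no further cluster. Their ends differed by a median of 176.5 bp, against 136 to 145.5 bp on 2L, 3L and 3R. On X 78.0% of these ends agreed within 500 bp, against 80.3% to 82.0%. Ends over 2 kb apart were no more frequent on X, 2.60% against 1.93% to 2.64%. Replicate 1 had the wider cluster in 406 pairs and replicate 2 in 170. The reference arms leaned the same way, with 349 against 182 on 2L, 420 against 199 on 3L and 571 against 184 on 3R.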

How the data were processed

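Sonicated, formaldehyde-crosslinked chromatin was immunoprecipitated, per the labels' protocols. Per the submitters' processing notes, Bowtie 0.12.7 was used. The authors deposited lists of clusters on FlyBase release 5, per the file headers, with a signed score for each cluster. Not given in the sources used here are the cluster caller, its threshold, the use made of the inputs and the making of the whole-series list. The number of reads per sample is unknown.

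Enriched clusters were read from each list. Shares are unions of clusters over the arm lengths in the file headers, and gaps are the bases between covered runs. Score percentiles rank a cluster within its list. Windows start at base 1, and clusters count in the window of their middle. Named regions are the widest, highest-scored, most isolated and unmatched X clusters, the longest chains and stretches and the most and least covered windows. The regions, measures and this rule were chosen with earlier results of these data known. The gene table at hand is of release 6 and was not matched to positions. Interval steps were tested on simulated arms. Alternatives are given in the closing section. Tables were made in Python 3.11.15 with pandas 2.3.3 and numpy 2.4.6, Wilson intervals and correlations with scipy 1.17.1, and figures with matplotlib 3.10.9.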

Additional observations from a re-analysis of the deposited data

Results flagged for a closer look

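Clusters named depleted carry scores below 0. No comparison used them, and they are given here as values outside the main measurement. The whole-series list held 4 on X, of 15 over all sequences. Replicate 1 held 1 of 14 on X and replicate 2 held 1 of 4. These counts were not tested. The 4 of the whole-series list measured from 1363 to 1747 bp, with scores from -0.10 to -0.03. A single site was depleted in more than 1 list, chrX:21487424-21489126 in the whole-series list and chrX:21487450-21489132 in replicate 1. The sites chrX:18297336-18299014 and chrX:21481310-21483056 lay wholly inside enriched clusters of replicate 1. The depleted site of replicate 2, chrX:19169671-19171265, lay wholly inside enriched clusters of replicate 1 and of the whole-series list. No input level was analysed here, and how often a depleted call is false is not known.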

How the results depend on the processing

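No paired analysis was possible because the inputs, which share replicate numbers with the ChIP samples, were not analysed here and no value comes from a test. Of 80 recomputed values, 42 stayed close to the main value, 31 moved and 7 changed direction. Close means within 1 SD of the replicates, within the Wilson interval for overlap, and equal to 3 digits for the Jaccard index. With 2 replicates, each always lies within their SD, so leaving one out could not count as a move. Joining clusters under 1 kb apart likewise cannot alter empty stretches of 50 kb or more. The 42 include these values, so that count overstates how stable the results are. All values below are X over the mean of 2L, 3L and 3R, unless said otherwise, and the cause of a move was not tested. The covered share (0.991 to 0.997 with a replicate left out) was 1.01 in the whole-series list, 0.999 without the 1 Mb at the centromere end, 0.957, 1.00 and 1.03 without 2L, 3L or 3R in the reference, 1.03 with only clusters at or above the median score and 0.981 at or above the median width. Density (1.05 to 1.09) was 1.04 in the whole-series list, 1.03 after joining clusters under 1 kb apart, 1.23 at or above the median score and 1.10 at or above the median width. The median width (1.00 to 1.07) was 1.10 in the whole-series list and 0.865 at or above the median score. The share of clusters of 10 kb or more (0.753 to 0.848) was 0.939 in the whole-series list, 0.982 after joining, 0.709 at or above the median score, 1.02 for 5 kb and 0.637 for 20 kb in place of 10 kb. The median gap (0.772 to 0.868) was 0.619 at or above the median score and stayed under 1 in every alternative tried. The length in empty stretches (1.07 to 1.08) was 1.09 in the whole-series list, 1.07 without the centromere end, 1.12, 1.07 and 1.05 without 2L, 3L or 3R, 0.991 at or above the median score, 1.01 at or above the median width, 1.03 for 30 kb and 1.16 for 100 kb. The median score percentile of X exceeded that of the reference by 6.59 percentage points (6.28 to 6.90), by 7.39 without 3R, by 3.45 at or above the median width and by 12.6 within width classes. Overlap with both replicates was 68.0% when 50% of the cluster had to be covered, 58.1% with 50% reciprocal overlap, 100% at or above the median score, 98.3% at or above the median width and 78.2% after joining. These overlap values were computed on X alone, so they do not set X apart from other arms. Over all arms 99.3% of the clusters of 5 to 10 kb and all wider ones met both replicates. The Jaccard index on X was 0.805 after joining and 0.736 at or above the median score.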
